A study of Mus musculus with 16 samples.

Results

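The sirtuins are the NAD-dependent protein deacylases encoded by Sirt1 to Sirt7, and they were read here in the intervertebral disc of mice that had lost Sirt6. Members were the probe sets whose platform annotation gave a sirtuin symbol. Such a probe set was found for 6 of the 7 genes, 1 for each of Sirt1 to Sirt6, among 19505 named genes on the array. Sirt7 was not analysed here.

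SIRT1, SIRT6 and SIRT7 work mainly in the nucleus, SIRT2 mainly in the cytosol, and SIRT3, SIRT4 and SIRT5 in mitochondria. Each of them splits NAD while it removes an acetyl or another acyl group from a lysine, or transfers ADP-ribose, so each depends on NAD. SIRT6 is bound to chromatin, removes acetyl groups from histone H3, takes part in DNA repair and represses glycolytic genes.

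The study set mice with floxed Sirt6 alleles and no Cre (Sirt6 fl/fl) against littermates that also carried a tamoxifen-inducible Cre driven from the Acan locus (Sirt6 cKO). Both genotypes received tamoxifen as young adults on a mixed genetic background, were male, and were 24 months old at tissue collection. Nucleus pulposus (NP), which fills the centre of the disc, and annulus fibrosus (AF), its lamellar outer ring, were dissected from lumbar and caudal discs and hybridised separately to Mouse Clariom S arrays, with 4 arrays in each of the groups NP fl/fl, NP cKO, AF fl/fl and AF cKO. Each array held the pooled discs of a single mouse, and deletion was limited to cells that use the Acan locus, so other cells of a cKO disc kept an intact gene. The floxed part of Sirt6 holds internal exons, and no source used here gives the position of the Sirt6 probes relative to these exons, so the probe set could miss the deletion. In bulk tissue, fewer cells of a type and less RNA per cell cannot be told apart.

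The values are log2 signals, and each was also set against a background value, the median over 23 control probe sets of its own array. This median lay at 4.28 to 4.33 for NP arrays, and for AF arrays at 4.65 to 4.83. A gene was called over background on an array at 2-fold or more above it, which held for 15.5% to 17.8% of named genes per NP array and 17.4% to 22.6% per AF array. The arrays correlated with the mean of the other arrays of their tissue at 0.797 to 0.836 in NP and 0.561 to 0.826 in AF, the lowest being AF cKO array 1. Of 10 NP markers, 5 passed this limit on more NP than AF arrays and 3 on more AF arrays, with Krt19 on 6 of 8 NP and 1 of 8 AF arrays but Krt8 on 8 of 8 and 7 of 8. Of 10 AF markers, 5 did so on more AF arrays and 1 on more NP arrays, with Dcn on 0 of 8 NP and 6 of 8 AF arrays but Col1a1 on 5 of 8 and 6 of 8. Skeletal muscle genes, 12 of 12 listed ones measured, averaged 2.05 on NP cKO arrays 1 and 3 and 2.45 on AF cKO array 4, as mean log2 over background, against 0.00 to 0.46 on all 8 fl/fl arrays and 0.16 to 0.62 on the remaining cKO arrays.

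Sirt6 itself was below the detection limit in every group. The log2 signal of Sirt6 was 3.74, 3.78, 4.21 and 4.12 on NP fl/fl arrays 1 to 4, and 3.69, 3.71, 3.81 and 4.54 on NP cKO arrays 1 to 4. The AF readings were 4.57, 4.59, 4.49 and 5.13 on fl/fl arrays 1 to 4, and 3.39, 4.38, 4.89 and 4.12 on cKO arrays 1 to 4. None of the 16 readings was 2-fold over background, 13 of them lay below the background median of their array, and the groups overlapped in both tissues. Sirt6 was thus not above the detection limit even in fl/fl mice, which carried an intact gene.

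The genotype comparison of Sirt6 therefore compared readings near background. The NP means were 3.94 ± 0.40 for cKO against 3.96 ± 0.24 for fl/fl (SD over 4 arrays each), a difference of -0.03 (95% interval -0.60 to 0.54, limma adjusted p = 0.997). The AF means were 4.19 ± 0.62 for cKO against 4.69 ± 0.29 for fl/fl (SD over 4 arrays each), a difference of -0.50 (95% interval -1.29 to 0.29, limma adjusted p = 0.978). In AF, cKO was the higher of the pair in 3 of 16 pairs of arrays, and the two-sided exact permutation test gave p = 0.200. Both intervals included 0 and the genotypes overlapped, and no fold change is given because both groups were below the detection limit. With NP cKO arrays 1 and 3 left out, the NP difference was 0.16, of the opposite sign.

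The promoter of Sirt6 is shown because its known regulators were measured on the same arrays. In mouse liver, nuclear respiratory factor 1 (NRF1) together with FOXO3 and SIRT1 has been placed at the Sirt6 promoter. RefSeq gives 9 promoter windows for the 7 sirtuin genes on assembly GRCm38.p6, each of 300 bases, 250 before and 50 after a transcription start. Capitals mark GCATGCGC, the core of the NRF1 motif, on either strand, with both strands' matches overlapping in a palindrome. This core was present in 2.71% of all 32851 windows, in 1 of the 2 Sirt6 windows and in the Sirt7 window, and in no window of Sirt1 to Sirt5.
Sirt6 promoter, chr10:81627517-81627816, minus strand: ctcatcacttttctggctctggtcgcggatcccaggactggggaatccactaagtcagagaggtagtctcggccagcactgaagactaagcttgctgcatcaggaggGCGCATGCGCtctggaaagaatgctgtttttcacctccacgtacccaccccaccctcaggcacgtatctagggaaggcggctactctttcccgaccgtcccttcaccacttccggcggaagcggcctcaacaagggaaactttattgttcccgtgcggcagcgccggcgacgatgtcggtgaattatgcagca

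Of these regulators, Nrf1 and Foxo3 were near background in the disc, and Sirt1 is described below. Nrf1 was 2-fold over background on 0 of 8 arrays in NP and on 0 of 8 in AF, with a cKO minus fl/fl difference of 0.37 in NP (95% interval -0.14 to 0.87) and -0.09 in AF (95% interval -0.92 to 0.74). Foxo3, the forkhead factor of the same complex, was also over background on 0 of 8 arrays in either tissue and differed by -0.06 in NP and 0.47 in AF. Nrf1 lay outside the rule for naming genes and was named after its values were seen.

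Across the other members, Sirt2 was over background in both tissues and Sirt3 throughout the NP, while Sirt3 in AF and Sirt1 were over it on few arrays and Sirt4 and Sirt5 on none. Of the 96 readings of the 6 genes on 16 arrays, 29 were over background. Sirt2 gave 16 of them, Sirt3 10 and Sirt1 3, while Sirt4 and Sirt5 gave 0, as did Sirt6. Against the highest single background control of each array, the counts were 16 for Sirt2, 12 for Sirt3 and 3 for Sirt1. Levels of different probe sets are not set against each other here, since each has its own probes.

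**Figure D1:**
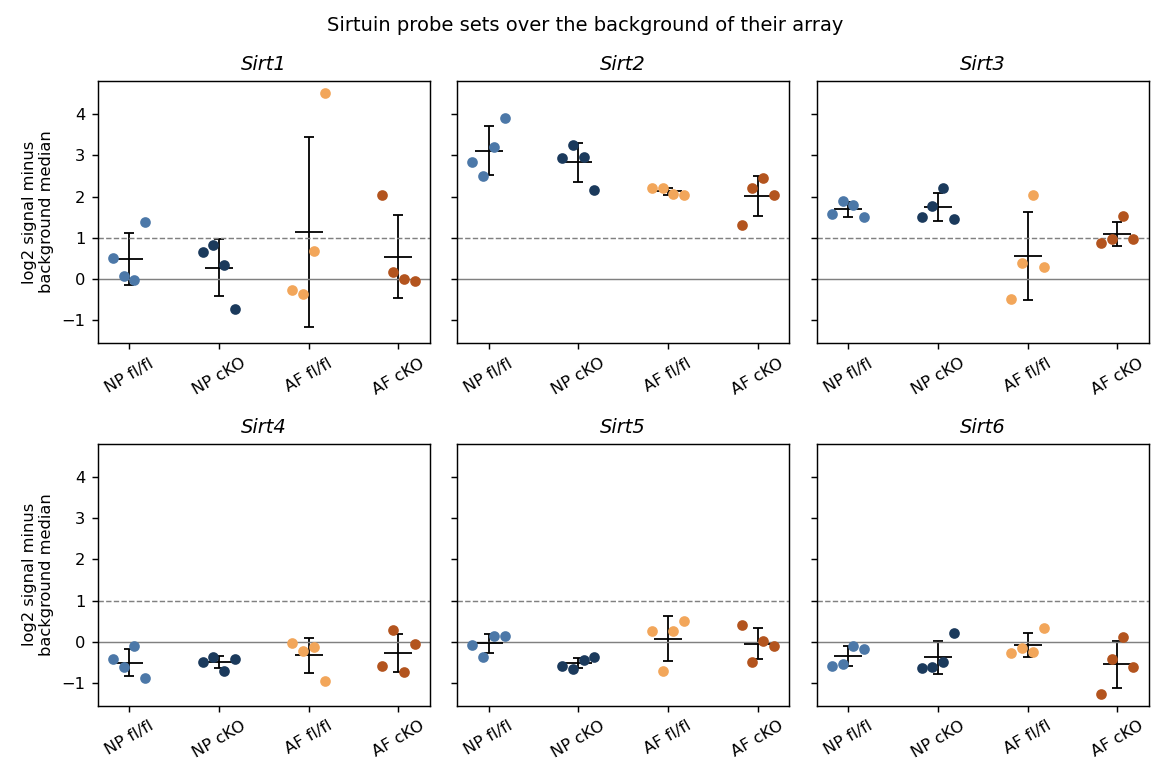
Log2 signal of each sirtuin probe set minus the background median of the same array, by group. Points are arrays in the order 1 to 4, bars are the mean and SD (n = 4), the solid line is the background median and the dashed line is the 2-fold limit. Sirt2 lies above the limit on all 16 arrays, Sirt3 on all 8 NP arrays but 2 of 8 AF arrays, and Sirt4, Sirt5 and Sirt6 on none.

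Sirt2, the cytosolic member that deacetylates alpha-tubulin and, in mitosis, histone H4, was the one sirtuin over background on every array. The log2 signal of Sirt2 was 7.16, 6.81, 7.52 and 8.21 on NP fl/fl arrays 1 to 4, and 7.27, 7.57, 7.26 and 6.48 on NP cKO arrays 1 to 4. AF readings were 7.05, 6.93, 6.80 and 6.83 on fl/fl arrays, and 5.97, 7.01, 7.23 and 6.79 on cKO arrays. The readings were 2.50-fold to 15.0-fold over background. The genotypes overlapped in both tissues, with the NP extremes on fl/fl array 4 and cKO array 4 and the lowest AF reading on cKO array 1, the array that stood apart from the others of its tissue.

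Sirt2 did not pass the test for genotype in either tissue. In NP the cKO minus fl/fl difference was -0.28 (95% interval -1.02 to 0.46, limma adjusted p = 0.941), so the interval reached from 0.494-fold to 1.37-fold of the fl/fl signal. In AF the difference was -0.15 (95% interval -0.88 to 0.57, limma adjusted p = 0.987), an interval from 0.544-fold to 1.49-fold. With AF cKO arrays 1 and 4 left out, the AF difference was 0.22, and with AF fl/fl array 4 and AF cKO array 1 left out it was 0.08, both of the opposite sign.

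The promoter of Sirt2 is shown for the member whose transcript was read on every array. Capitals mark CCAAT on either strand, the letters bound by the factor NF-Y, which were in 37.4% of all windows, 2 times in the Sirt2 window and 1 time each in a Sirt3 window and the Sirt5 window.
Sirt2 promoter, chr7:28766502-28766801, plus strand: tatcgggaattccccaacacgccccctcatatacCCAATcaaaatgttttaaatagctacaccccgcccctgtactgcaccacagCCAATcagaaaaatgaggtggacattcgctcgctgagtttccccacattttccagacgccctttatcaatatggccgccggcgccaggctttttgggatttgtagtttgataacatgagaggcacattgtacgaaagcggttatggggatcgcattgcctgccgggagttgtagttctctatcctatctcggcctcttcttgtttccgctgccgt

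Sirt3, the main deacetylase of the mitochondrial matrix, was over background throughout the NP and on few AF arrays. The log2 signal of Sirt3 was 5.90, 6.19, 6.11 and 5.80 on NP fl/fl arrays 1 to 4, and 5.82, 6.09, 6.49 and 5.80 on NP cKO arrays 1 to 4, which is 2.76-fold to 4.61-fold over background. In AF the signal was 4.35, 5.11, 6.78 and 5.08 on fl/fl arrays, and 5.53, 5.78, 6.31 and 5.72 on cKO arrays. On this scale AF fl/fl array 3 held the highest of the 16 readings and AF fl/fl array 1 the lowest. Over the background of each array, the highest was NP cKO array 3 at 2.20, ahead of AF fl/fl array 3 at 2.05, and the lowest was again AF fl/fl array 1 at -0.47.

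In NP, Sirt3 was close in both genotypes, with means of 6.05 ± 0.32 for cKO and 6.0 ± 0.18 for fl/fl (SD over 4 arrays each). The NP difference was 0.05 (95% interval -0.47 to 0.57, limma adjusted p = 0.986), an interval from 0.722-fold to 1.49-fold. In AF the difference was 0.51 (95% interval -0.51 to 1.52, limma adjusted p = 0.978), and cKO was higher in 12 of 16 pairs. Without AF fl/fl array 3 the AF difference was 0.99 (95% interval 0.21 to 1.77, limma adjusted p = 0.904), past the thresholds of the study and not past the adjusted one. The 3 fl/fl readings left were then all under the detection limit, so this is a difference from readings not above background and no fold is drawn from it. With NP cKO arrays 1 and 3 left out, the NP difference was -0.05.

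Sirt1, the nuclear deacetylase of p53 and FOXO factors, was over background on NP fl/fl array 4, AF fl/fl array 4 and AF cKO array 1. The log2 signal of Sirt1 was 4.83, 4.39, 4.29 and 5.68 on NP fl/fl arrays 1 to 4, and 4.97, 5.14, 4.64 and 3.61 on NP cKO arrays 1 to 4. AF arrays gave 4.56, 4.36, 5.42 and 9.30 on fl/fl arrays, and 6.69, 4.98, 4.78 and 4.70 on cKO arrays. The reading on AF fl/fl array 4 was 22.9-fold over background, while the median over all 16 arrays was 1.21-fold, and the groups overlapped in both tissues.

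Sirt1 did not pass the test for genotype, and in AF its interval was the widest of the family. The cKO minus fl/fl difference was -0.21 in NP (95% interval -1.06 to 0.64, limma adjusted p = 0.958) and -0.62 in AF (95% interval -2.62 to 1.38, limma adjusted p = 0.981). Without AF fl/fl array 4 and AF cKO array 1, the AF difference was 0.04.

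The promoter of Sirt1 is shown as the only sirtuin window that held the E-box CACGTG, the letters bound by MYC and by the CLOCK and BMAL1 pair. Capitals mark this motif, which reads the same on both strands, occurred 2 times in the window and was present in 7.15% of all windows. Myc differed by -0.39 in NP, and the BMAL1 gene Arntl by -0.80 in NP (limma adjusted p = 0.931), with both genes over background on 0 of 8 NP arrays. TATAAA was in 13.6% of all windows and in 0 of the 9 sirtuin windows.
Sirt1 promoter, chr10:63338986-63339285, minus strand: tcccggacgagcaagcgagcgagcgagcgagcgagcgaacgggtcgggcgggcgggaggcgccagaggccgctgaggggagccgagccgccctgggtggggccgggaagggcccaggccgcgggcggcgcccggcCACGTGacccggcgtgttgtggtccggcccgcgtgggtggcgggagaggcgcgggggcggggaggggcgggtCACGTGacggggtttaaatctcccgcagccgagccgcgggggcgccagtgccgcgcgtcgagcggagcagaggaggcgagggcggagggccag

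Sirt4 and Sirt5, the mitochondrial members with weak deacetylase activity, of which SIRT5 removes succinyl and malonyl groups, were under the detection limit on all 16 arrays. The log2 signal of Sirt5 was 4.25, 3.94, 4.44 and 4.45 on NP fl/fl arrays 1 to 4, and 3.72, 3.67, 3.84 and 3.97 on NP cKO arrays 1 to 4. A single pair of 16 was higher in cKO. The means were 3.80 ± 0.13 for cKO and 4.27 ± 0.24 for fl/fl (SD over 4 arrays each), a difference of -0.47 (95% interval -0.96 to 0.01, limma adjusted p = 0.931). The two-sided exact permutation test gave p = 0.0571, where the smallest p that 4 against 4 arrays allow is 0.0286. Because both groups lay at or below the background, with 0.637-fold to 1.11-fold of the background median over the 8 NP arrays, this is a difference between background readings.

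In AF, Sirt5 was 5.10, 4.01, 5.0 and 5.28 on fl/fl arrays 1 to 4 and 5.05, 4.31, 4.80 and 4.63 on cKO arrays 1 to 4, a difference of -0.15 (95% interval -0.92 to 0.62). Sirt4 ran from 3.41 to 4.21 on the 8 NP arrays and from 3.84 to 5.08 on the 8 AF arrays. Its cKO minus fl/fl difference was 0.01 in NP (95% interval -0.52 to 0.53) and 0.03 in AF (95% interval -0.74 to 0.80). Array weights gave -0.02 in NP, and the AF value was -0.04 without AF fl/fl array 4 and AF cKO array 1.

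The question behind these comparisons is whether another sirtuin was raised where Sirt6 was deleted. By limma, 0 of 6 sirtuins passed an adjusted p of 0.05 in NP and 0 of 6 in AF, where 0% of the 19505 genes passed in either tissue. At the thresholds of the study (a fold change of 1.75 or more at an unadjusted p no higher than 0.05) the counts were also 0 of 6 and 0 of 6, against 2.07% of all genes in NP and 3.31% in AF. No sirtuin reached an unadjusted p under 0.05 in either tissue. The arrays of the genotypes did not overlap for 0 of 6 sirtuins in NP and in AF, against 2.85% and 2.69% of all genes. The median difference of the 6 genes was -0.12 in NP and -0.15 in AF, and of all genes -0.02 and -0.01. The 6 genes in these counts and medians include the deleted Sirt6 and members under the detection limit.

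These intervals bound a rise in signal, and only where a member was over background. The signals still held the background, so a change in transcript could be larger than the change in signal. A rise in part of the cells would also read smaller in bulk tissue. For Sirt2 the upper ends were 1.37-fold in NP and 1.49-fold in AF, and for Sirt3 in NP the upper end was 1.49-fold. In AF, Sirt3 was over background on 1 of 4 fl/fl and 1 of 4 cKO arrays, which gives no such bound. For Sirt1, Sirt4 and Sirt5 a change in transcript level below the detection limit could not be seen on these arrays.

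**Figure D2:**
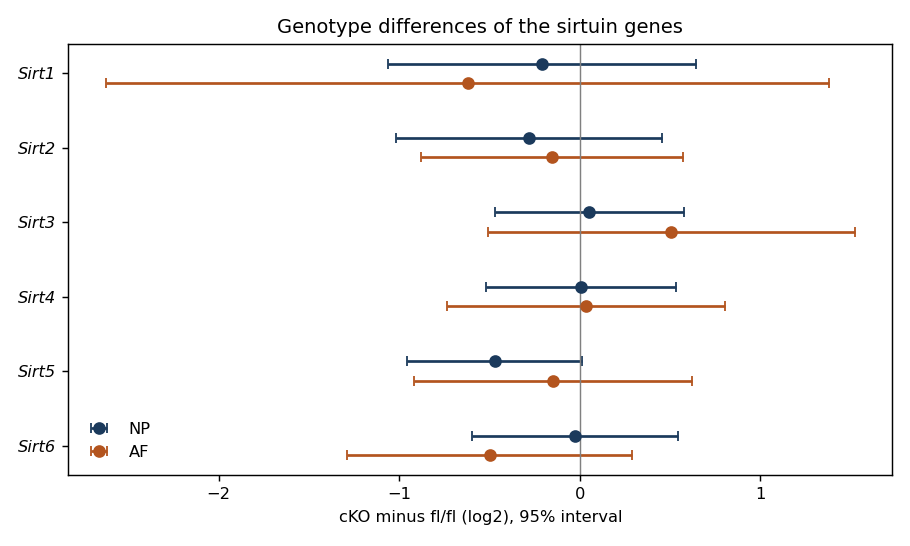
Difference between cKO and fl/fl mice in log2 signal for each sirtuin, in NP and in AF. Points are limma estimates from 4 arrays against 4 and bars are 95% intervals, all of which include 0. The widest is Sirt1 in AF, from -2.62 to 1.38.

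The genotype effects in the tissues were also set against each other. The NP effect minus the AF effect lay between -0.45 for Sirt3 and 0.47 for Sirt6, with limma adjusted p from 0.986 to 0.997. Adjusted p was under 0.05 for 0 of 6 sirtuins and 0% of genes, and unadjusted p under 0.05 for 0 of 6 sirtuins and 4.16% of genes. Without AF fl/fl array 3, the value of Sirt3 was -0.94 (limma adjusted p = 0.872).

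Sirt2 and Sirt3 had higher means in NP than in AF when each array's background was taken off, although neither passed the adjusted threshold. The sources do not say whether NP and AF arrays share mice, or which of them would, and the tests treated the arrays as independent. In fl/fl mice, Sirt2 lay 2.84, 2.51, 3.22 and 3.91 over background on NP arrays 1 to 4 on the log2 scale, and 2.22, 2.20, 2.07 and 2.05 on AF arrays 1 to 4. All 4 NP readings were above all 4 AF readings, as was the case for 1 of 6 sirtuins and, in either direction, for 9.85% of all genes. The difference of Sirt2 was 0.98 (95% interval 0.29 to 1.68, limma adjusted p = 0.148, two-sided exact permutation p = 0.0286, the smallest possible). In cKO mice, Sirt2 lay 2.95, 3.26, 2.97 and 2.15 over background in NP and 1.32, 2.21, 2.45 and 2.05 in AF, with 1 NP array inside the AF range. That difference was 0.83 (95% interval 0.13 to 1.52, limma adjusted p = 0.198, exact permutation p = 0.0857).

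Sirt3 showed the same order of means with a wider AF spread. In fl/fl mice Sirt3 lay 1.58, 1.89, 1.80 and 1.5 over background in NP and -0.47, 0.38, 2.05 and 0.30 in AF. The difference was 1.13 (95% interval 0.31 to 1.95, limma adjusted p = 0.156, exact permutation p = 0.143). Without AF fl/fl array 3, the highest AF reading, it was 1.62 with an adjusted limma p of 0.0260, and the 3 AF readings left were all under the detection limit, so the size of this difference is not a measured one. In cKO mice Sirt3 lay 1.51, 1.78, 2.20 and 1.47 over background in NP and 0.88, 0.99, 1.54 and 0.99 in AF, a difference of 0.64 (95% interval -0.18 to 1.46, limma adjusted p = 0.404).

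An adjusted p under 0.05 was reached by 0 of 6 sirtuins in fl/fl and 0 of 6 in cKO mice, against 0.856% and 1.3% of all genes. Genes higher in NP made up 0.323% and 0.426% of all genes. In cKO mice the NP and AF readings did not overlap for 0 of 6 sirtuins and 11.8% of genes. The other 4 sirtuins had intervals that included 0 in both genotypes. On the deposited scale, with no background taken off, the median of all genes shifted from -0.02 to -0.48 in fl/fl and from -0.06 to -0.49 in cKO mice, and the differences of Sirt2 were 0.52 and 0.40 and those of Sirt3 0.67 and 0.21. On that scale Sirt5 in cKO mice was at -0.90 (limma adjusted p = 0.0406), with both tissues under the detection limit.

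**Figure D3:**
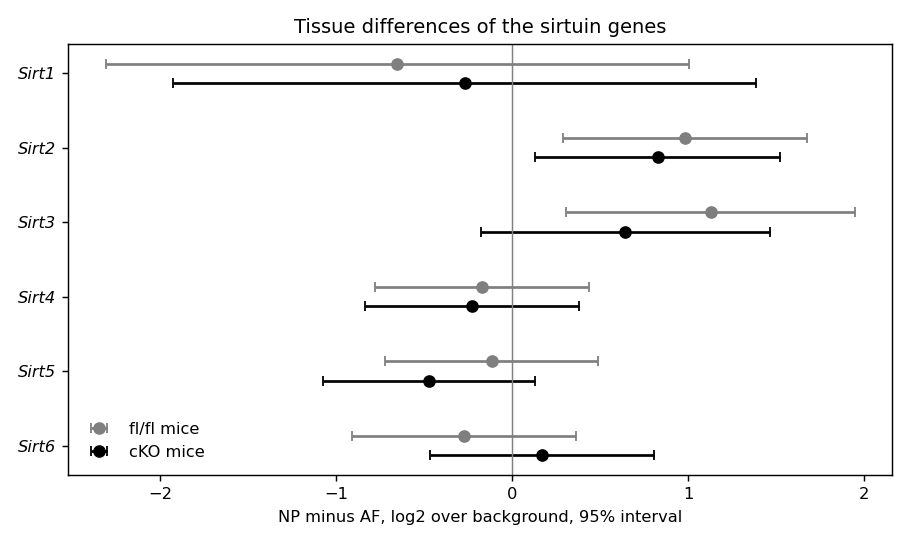
Difference between NP and AF in log2 signal over background for each sirtuin, in fl/fl and in cKO mice. Points are limma estimates from 4 arrays against 4 and bars are 95% intervals. Sirt2 lies at 0.98 and 0.83 and Sirt3 at 1.13 and 0.64.

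NAD is made from nicotinamide, nicotinic acid and tryptophan, and its supply and use bear on every sirtuin. Of 19 measured genes of NAD synthesis and salvage, 8 were higher and 11 lower in NP cKO and 9 higher and 10 lower in AF cKO, and 0 passed the thresholds of the study in either tissue. The naming rule took genes from this and the following lists by tissue. For those given here, the limma adjusted p was 0.931 for a value in NP and 0.978 for a value in AF. This holds for the tissue in which a gene was named and not for values from the other tissue. The medians were -0.15 in NP and -0.14 in AF. Nampt, the rate-limiting enzyme of salvage, was over background on 0 of 8 arrays in each tissue, with differences of -0.16 in NP and -0.34 in AF, and was named after its values were seen.

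Nmnat1, the nuclear enzyme that makes NAD from its mononucleotide, had the lowest p of the NAD synthesis list in both tissues, with opposite signs. Its log2 signal was 5.23, 6.92, 6.21 and 5.44 on NP fl/fl arrays 1 to 4 and 4.70, 5.09, 4.82 and 5.99 on NP cKO arrays 1 to 4. In AF it was 5.35, 6.05, 6.35 and 5.40 on fl/fl arrays and 5.83, 7.68, 6.17 and 6.33 on cKO arrays. The groups overlapped in both tissues. The difference was -0.80 in NP (limma adjusted p = 0.931) and 0.71 in AF (limma adjusted p = 0.978), and the difference between these effects was -1.51 (limma adjusted p = 0.986).

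Of 14 measured enzymes that consume NAD or clear nicotinamide, 6 were higher and 8 lower in NP cKO, 5 higher and 9 lower in AF cKO, and 0 passed the thresholds. Parp10, a mono-ADP-ribosyltransferase, differed by -0.46 in NP and 0.56 in AF, and was over background on 0 of 8 arrays in either tissue. Parp4 differed by -0.86 in AF. Parp3, a DNA-break sensor read on 8 of 8 arrays in each tissue and named after its values were seen, differed by -0.04 in NP (95% interval -0.56 to 0.48) and 0.00 in AF (95% interval -1.03 to 1.04).

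Of 20 measured regulators of sirtuin genes and proteins, 13 were higher and 7 lower in NP and 11 higher and 9 lower in AF, with medians of 0.07 and 0.16 and 0 past the thresholds. Rps19bp1, whose product activates SIRT1, differed by 0.69 in NP and -0.15 in AF, and the NP value was 0.18 without NP cKO arrays 1 and 3. Mapk8, the kinase JNK1, differed by -0.82 in NP, and by -0.40 without NP fl/fl array 1. Among NP arrays, Rps19bp1 was over background on cKO array 1 alone, at 1.43 on the log2 scale, and Mapk8 on fl/fl array 1 alone, at 1.81. E2f1, a transcription factor of the cell cycle, differed by -0.79 in AF.

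Among 16 measured chromatin substrates and partners of SIRT6 and SIRT7, 1 gene (6.25%) passed the thresholds of the study in NP and 0 did in AF, against 2.07% and 3.31% of all genes. This was Kat2a, the acetyltransferase GCN5 that SIRT6 deacetylates in mouse liver, at 3.99, 3.54, 4.08 and 3.64 on NP fl/fl arrays and 3.91, 4.33, 4.96 and 5.54 on NP cKO arrays. Kat2a was over background on 1 of 8 NP arrays and differed by 0.87 (95% interval 0.13 to 1.61, limma adjusted p = 0.931). The call held in 4 of 8 fits with 1 array left out, and was lost without fl/fl array 2 or 4 and without cKO array 3 or 4, with a difference of 0.59 without cKO array 4. Smarca5, the remodelling ATPase that SIRT6 brings to DNA breaks, differed by 3.35 in AF (95% interval -1.08 to 7.77). Its AF readings were 4.49, 5.35, 4.17 and 9.54 on fl/fl arrays and 16.9, 5.90, 7.19 and 6.96 on cKO arrays, so AF cKO array 1 stood far above the rest, and without it the difference was 0.80. The DNA glycosylase gene Ogg1 differed by 0.54 in NP and -0.39 in AF, and the NP value was 0.18 without NP cKO arrays 1 and 3.

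Of 24 measured metabolic genes that SIRT6 is known to repress, most of them glycolytic, 12 were higher and 12 lower in NP cKO and 5 higher and 19 lower in AF cKO. The median was 0.05 in NP and -0.41 in AF, where it was -0.02 and -0.01 over all genes. The thresholds of the study were passed by 1 gene in NP, upwards, and by 3 genes in AF, all downwards, which is 4.17% and 12.5% of the list against 2.07% and 3.31% of all genes. Marker lists went both ways in AF cKO. The median was 0.64 for skeletal muscle, with 1 of 12 genes past the thresholds, upwards. It was 0.53 for erythroid, 0.35 for cartilage, 0.27 for osteoblast and 0.21 for AF markers. It was 0.00 for leukocyte, -0.10 for endothelium and -0.25 for osteoclast markers. The 7 epidermis markers had a median of -0.67 with 2 past the thresholds, both downwards, and averaged 0.89 to 1.82 over background on the fl/fl arrays and -0.25 to 1.02 on the cKO arrays. The 10 NP markers had a median of -0.42 with 1 past the thresholds, downwards, and averaged 0.54 to 1.17 on the fl/fl and 0.087 to 0.76 on the cKO arrays. The part of these marker genes in the values of the metabolic list was not tested. With the background median of each array taken off, the AF count was 2. By limma, no gene of the list passed an adjusted p of 0.05.

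In AF the 3 genes were Aldoa, the muscle-type aldolase, Irs1, an adaptor of insulin signalling, and Pdk1, a kinase that inhibits pyruvate dehydrogenase. Aldoa was 7.44, 8.55, 6.0 and 7.70 on fl/fl arrays and 5.42, 5.82, 5.69 and 6.37 on cKO arrays, a difference of -1.60 (95% interval -2.65 to -0.55, limma adjusted p = 0.978), with fl/fl array 3 inside the cKO range, and the call held without each array in turn. Irs1 differed by -1.24 and Pdk1 by -1.13, each over background on 1 of 8 AF arrays. The Irs1 call was lost without fl/fl array 1, at -0.84, and the Pdk1 call held in 2 of 8 fits with 1 array left out, whose values ran from -1.58 to -0.68. The list median in AF was -0.49 with AF cKO arrays 1 and 4 left out and -0.13 with AF fl/fl array 4 and AF cKO array 1 left out. In each case 3 of the 24 genes passed the thresholds, all downwards, Aldoa among them both times and Irs1 neither time. Of all 19505 genes, 471 rose and 202 fell past them in the former fit, and 550 rose and 355 fell in the latter.

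In NP the gene was Ldha, the muscle-type lactate dehydrogenase. Its log2 signal was 7.85, 7.11, 7.78 and 7.03 on fl/fl arrays and 11.8, 7.02, 11.4 and 8.09 on cKO arrays, a difference of 2.12 (95% interval 0.17 to 4.07, limma adjusted p = 0.931). The call held in 2 of 8 fits with 1 array left out, whose values ran from 1.38 to 2.97. The high readings were on cKO arrays 1 and 3, which also carried the muscle transcripts given above. Acan was highest there too, at 10.8 and 11.3, where the remaining NP arrays read 5.61 to 7.38. The 10 NP markers also averaged most on cKO arrays 1 and 3, at 1.81 and 1.94 over background on the log2 scale. They averaged 0.57 and 0.68 on cKO arrays 2 and 4, below the 1.11 to 1.46 of the fl/fl arrays. Without cKO arrays 1 and 3, Ldha differed by 0.11 and the list median in NP was -0.20. In that fit 0 of the 24 list genes rose past the thresholds and 4 fell past them. Of all 19505 genes, 353 rose and 298 fell past them, and of the 10 NP markers 0 rose and 4 fell. The part of the muscle transcripts and of the NP markers in the Ldha value was not tested.

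Acan, whose locus drives the Cre, was itself 8.91 ± 2.53 in NP cKO against 6.69 ± 0.78 in NP fl/fl arrays (SD over 4 arrays each), a difference of 2.23 (95% interval 0.09 to 4.37, limma adjusted p = 0.931), which was 0.08 without NP cKO arrays 1 and 3. The AF values were 7.33 ± 2.02 and 6.71 ± 0.23 (SD over 4 arrays each), a difference of 0.62 (95% interval -1.05 to 2.29). The AF cKO readings were 6.36, 6.08, 6.52 and 10.3, and without array 4 the difference was -0.39, of the opposite sign. That array also averaged 4.32 over background for the 13 cartilage markers, against 1.09 to 1.53 on the other AF arrays, beside the muscle value given above.

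Proteins that the other sirtuins deacylate were read by their transcripts. Of 20 measured cytosolic and nuclear substrates of SIRT1 and SIRT2, 10 were higher and 10 lower in NP and 7 higher and 13 lower in AF, and 0 passed the thresholds of the study. Arntl had the lowest p in NP, as given with the Sirt1 promoter, and missed the thresholds because its fold change was too small. Tuba4a, an alpha-tubulin, differed by -0.68 in AF. Sox9 and Map1lc3b differed by 2.31 and 1.47 in NP, and both read highest on NP cKO arrays 1 and 3, without which they differed by -0.35 and -0.23.

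Of 25 measured mitochondrial substrates of SIRT3, SIRT4 and SIRT5, 12 were higher and 13 lower in NP and 10 higher and 15 lower in AF. The thresholds were passed by 0 genes in NP and by 1 (4% of the list) in AF, Ndufa9, a subunit of respiratory complex I, near the 3.31% of all genes. Ndufa9 was 5.58, 7.38, 6.03 and 5.27 on AF fl/fl arrays and 3.83, 4.69, 5.21 and 5.08 on AF cKO arrays. Of these readings, only those on fl/fl arrays 2 and 3 were over background. The genotypes did not overlap, as for 2.69% of all genes. The difference was -1.36 (95% interval -2.40 to -0.32, limma adjusted p = 0.978). No fold is drawn from it, because no cKO reading was over background. Gpx4 differed by -0.63 in NP, which was -0.32 without NP cKO array 4, and by 0.46 in AF. Acadvl differed by 0.81 in AF. Of 10 zinc-dependent deacetylases, 6 were higher in NP and 3 in AF, with medians of 0.15 and -0.08 and 0 past the thresholds, and Hdac2 differed by -0.64 in AF.

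**Figure D4:**
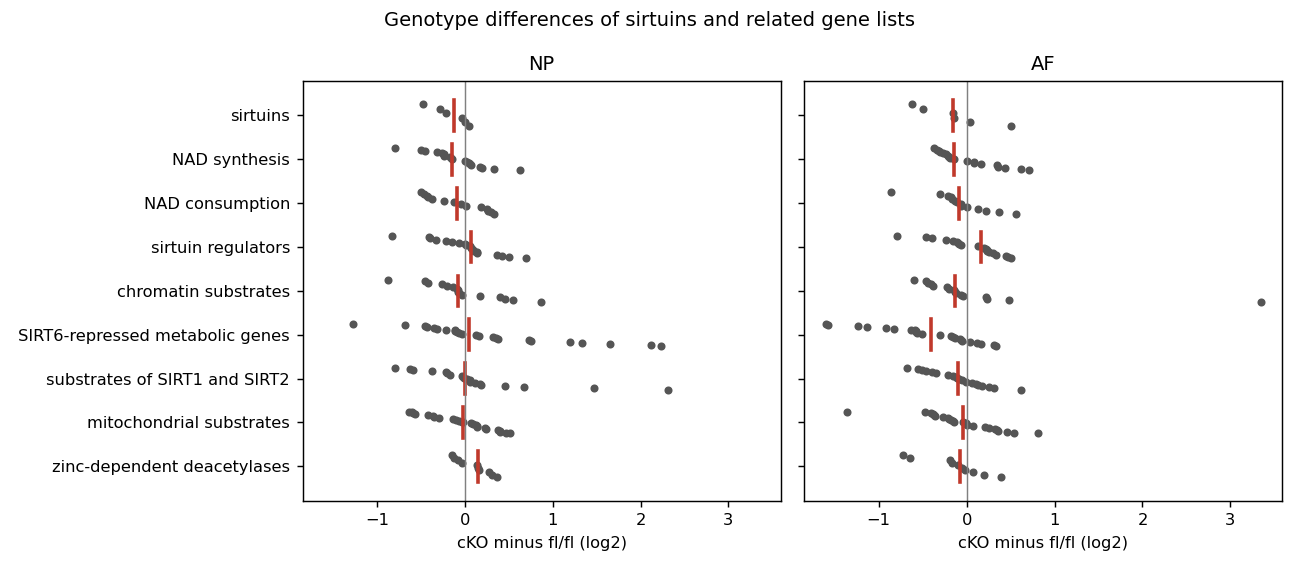
Difference between cKO and fl/fl mice in log2 signal for every measured member of the sirtuin family and 8 related gene lists, in NP and in AF. Each point is a gene and each bar the median of its list, which runs from -0.41 to 0.16 in AF and from -0.15 to 0.15 in NP.

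After the mean of each group was taken off, the genes most like Sirt2, Sirt3 and Sirt6 were sought among the 1407 genes that passed the detection limit in 12 or more of the 16 readings. For Sirt2 they were Gabarapl1, an autophagy protein of the ATG8 family, at a Pearson correlation of 0.86 over 16 arrays, the proteasome subunit gene Psmd1 at 0.78 and the prefoldin subunit gene Pfdn5 at 0.78. For Sirt3 they were Nudt9, an ADP-ribose hydrolase, at 0.86, Hyi at 0.86 and Churc1 at 0.85. Sirt6, although under the detection limit, reached 0.91 with Pprc1, a coactivator of the PGC-1 family, 0.88 with Ddc and 0.87 with Sun2. These are the highest of 1407 values each, over arrays that share hybridisation and signal range, and are given as a description.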

How the data were processed

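NP and AF RNA of fl/fl and cKO mice was measured on 16 Mouse Clariom S arrays, 4 for each tissue and genotype. The authors labelled cDNA with biotin, hybridised and scanned the arrays, and summarised probe sets by SST-RMA in Expression Console; the Transcriptome Analysis Console is also listed by the submitters. Log2 signals as deposited ran from 2.56 to 19.9. Whether NP and AF were normalized together, and the probes' genome build, are not given in the sources used here. The number of arrays limits the precision.

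Groups came from the tissue and genotype labels. Of 28846 probe sets, 19572 had a single symbol; for 55 genes with several, the one with the highest mean was used, leaving 19505 genes. Genotypes were compared within tissue by limma 3.58.1 in R 4.3.3 on all genes, unfiltered so that every sirtuin was tested, with Benjamini-Hochberg adjustment. Tissues and the interaction came from a fit of all arrays, the tissues after each array's background median was taken off. Single genes were also compared by two-sided exact permutation. The SAM test of the authors was not run. The limma step was tested on simulated data. Figures were drawn with matplotlib 3.10.9.

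The members and gene lists were chosen with earlier results of these data known. Named genes were all sirtuins, up to 3 genes per list and tissue with the lowest unadjusted p, Acan, and the 3 genes most similar to Sirt2, Sirt3 and Sirt6. Alternatives were 2 filters on low signal, protein-coding genes alone, quantile normalization, median centring, background taken off or not, array weights, a trended and robust eBayes, all arrays in the fit, the replicate number as a block, other detection limits, and leaving out each array; leaving out pairs of arrays, and leaving out arrays for the list genes, were chosen after the data were seen.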

Additional observations from a re-analysis of the deposited data

Results flagged for a closer look

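Within groups of 4 arrays, the highest or lowest reading was set against the nearest other reading, a rule that chance alone meets in about 1 of 20 groups. Of 24 groups of sirtuin readings 3 met it, and of 196 groups over all named genes 18 did. Sirt1 on AF cKO array 1 read 6.69, where the other 3 arrays lay between 4.70 and 4.98. Sirt6 on NP cKO array 4 read 4.54, with the others between 3.69 and 3.81, and Sirt6 on AF fl/fl array 4 read 5.13, with the others between 4.49 and 4.59. Both Sirt6 readings were under the detection limit.

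Among the genes of the lists, high readings were those of Smarca5 on AF cKO array 1 (16.9), Acan on AF cKO array 4 (10.3), Pdk1 on NP fl/fl array 2 (7.13), Kmo on NP cKO array 2 (6.25), Gpx4 on AF fl/fl array 4 (5.90), Sox9 on NP fl/fl array 2 (5.24), Kat2a on AF fl/fl array 3 (5.18), Hdac11 on NP fl/fl array 4 (4.46) and Nmrk2 on NP cKO array 3 (4.199). Low readings were those of Irs2 on AF cKO array 1 (5.82), Hdac6 on NP cKO array 4 (4.46), Hdac1 on NP fl/fl array 1 (4.39), Parp4 on NP cKO array 2 (4.34), Foxo3 on NP cKO array 4 (4.02) and Gpx4 on NP cKO array 4 (3.88). Of the high readings, those of Sox9, Kat2a, Hdac11 and Nmrk2 were under the detection limit. So were all the low readings except that of Irs2.

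Of the 6 sirtuins and the list genes taken by the naming rule, 49 in all, 4 had a genotype effect that differed between NP and AF at an unadjusted p under 0.05, as did 4.16% of all genes. Most of the 49 were named for a low p in a single tissue, so their count is a description and cannot be read against that share. The NP effect minus the AF effect was -1.51 for Nmnat1, -1.02 for Parp10, 0.93 for Ogg1 and 1.13 for Irs1, with a limma adjusted p of 0.986 for each. None of the 4 is a sirtuin.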

How the results depend on the processing

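No sirtuin changed its call by genotype at an adjusted limma p of 0.05 under any alternative run, and the count of sirtuins past the thresholds of the study was 0 under each except without AF fl/fl array 3. Over 4 arrays per group, intervals were wide and Sirt4, Sirt5 and Sirt6 lay under the detection limit, so the sign of a small difference carries little. Readings over background were 29 at the 2-fold limit, 35 at 1.5-fold, 22 at 3-fold and 31 over the highest control. The filter at the 40th percentile removed Sirt4 and Sirt6, and the filter at 2-fold over background kept Sirt2 and Sirt3 in NP and Sirt2 in AF. A trended and robust limma fit brought Sirt5 in NP to an unadjusted p under 0.05, at an adjusted p of 0.936. Without NP fl/fl array 2, 1 of 6 sirtuins also had an unadjusted limma p under 0.05 in NP, and 0 an adjusted one.

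The sign turned without NP cKO arrays 1 and 3 for Sirt3 (-0.053) and Sirt6 (0.16) in NP, and with array weights for Sirt4 in NP (-0.016). It turned in AF without cKO arrays 1 and 4 for Sirt2 (0.22), and without fl/fl array 4 and cKO array 1 for Sirt1 (0.039), Sirt2 (0.081) and Sirt4 (-0.035). With no background taken off, NP minus AF in cKO mice was -0.26 for Sirt6, and 1 sirtuin, Sirt5, passed the adjusted threshold. Of the list genes, Sox9 turned to -0.35 and Map1lc3b to -0.23 in NP without cKO arrays 1 and 3, and Acan to -0.41 in AF without cKO arrays 1 and 4. The cause was not tested.

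Leaving out each array in turn gave 0 to 1 sirtuins past the thresholds in AF and 0 to 1 at an adjusted p under 0.05 for NP minus AF in fl/fl mice, both times Sirt3 without AF fl/fl array 3, when every AF fl/fl reading left was under the detection limit. The ranges that crossed 0 were, for genotype in NP, -0.39 to 0.12 for Sirt1, -0.094 to 0.14 for Sirt3, -0.12 to 0.14 for Sirt4 and -0.23 to 0.055 for Sirt6. In AF they were -1.14 to 0.51 for Sirt1, -0.31 to 0.11 for Sirt2 and -0.17 to 0.17 for Sirt4. For the NP effect minus the AF effect they were -0.72 to 0.93 for Sirt1, -0.39 to 0.13 for Sirt2 and -0.16 to 0.18 for Sirt4. For NP minus AF they were -1.15 to 0.47 for Sirt1 and -0.38 to 0.021 for Sirt5 in fl/fl mice, and -0.46 to 0.23 for Sirt1 and -0.069 to 0.39 for Sirt6 in cKO mice. Acan in AF ran from -0.39 to 1.03. Of 7 differences of list genes and Acan past the thresholds, those of Aldoa and Ndufa9 in AF passed them without each array. Ndufa9 was under the detection limit on every AF cKO array. Of 19 other differences given, none of them past the thresholds with all arrays, 14 moved by over 1.5 times without some array. Of the same 19, 11 passed the thresholds without some array.

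The sources do not say whether a shared replicate number marks a shared mouse, and correlations over so few arrays cannot decide it. Same-numbered fl/fl and cKO arrays correlated at -0.30 to 0.16 in NP and -0.04 to 0.09 in AF, and same-numbered NP and AF arrays at -0.18 to 0.14 in fl/fl and -0.31 to 0.13 in cKO mice, after group means were taken off. With the number as a block, 0 of 6 sirtuins passed an adjusted p of 0.05 in any comparison, and 473 genes in NP and 747 in AF passed the thresholds of the study, against 403 and 645 without it. The genes at an adjusted p under 0.05 for NP minus AF, 167 in fl/fl and 253 in cKO mice, numbered 1 and 22 with the block, 42 and 25 from the 8 arrays of each genotype alone, and 2568 and 3190 with no background taken off. In fl/fl mice they numbered 63 with the trended and robust fit. The genes past the thresholds of the study numbered 85 in NP and 122 in AF under the filter at 2-fold over background, 924 in AF with all 16 arrays in the fit, and 651 in NP without cKO arrays 1 and 3.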
